A study of Homo sapiens with 6 samples.

Results

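HSPA1A, HSPA1B, HSPA6, HSPA8, HSPA4, HSPH1, HSP90AA1, HSP90AB1, HSPB1 and HSF1 are the heat-inducible and constitutive chaperone genes of the cytosol together with the gene of their transcription factor. These 10 genes were taken by name from the 57500 Ensembl genes of the deposited table, after the identifiers had been matched to current symbols, and all 10 were found and passed the filter on low values, HSPA6 only through its Mock values. Their levels were compared between HEK293T cells that overexpressed PRMT1, an enzyme that transfers methyl groups to arginine residues of proteins, and control cells. The 3 PRMT1 OV libraries came from cells transfected by PolyJet with a pcDNA3 plasmid carrying PRMT1, and the 3 Mock libraries from wild-type HEK293T cells labelled as vector control. HEK293T is an established human embryonic kidney line, so all 6 libraries share 1 cell line and carry no heat treatment in their labels. The labels do not say whether Mock cells received an empty plasmid, how long after transfection RNA was taken, or whether replicates were separate cultures, and if they were not, the p-values below cover technical spread alone.

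HSP70 proteins bind stretches of unfolded protein and release them again in a cycle driven by ATP. Members of the HSP110 family, such as HSPA4 and HSPH1, exchange the nucleotide of HSP70, HSP90 proteins hold kinases, steroid receptors and other clients near their mature fold, and the small heat shock protein HSPB1 keeps damaged proteins from aggregating. HSF1 is held inactive while chaperones are plentiful, and upon heat or other protein damage it forms trimers that bind heat shock elements, inverted repeats of the unit GAA, before the chaperone genes.

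In PRMT1 OV cells, HSPA6, the strictly stress-inducible HSP70 gene, was almost lost, with a mean of 0.880 ± 0.469 TPM in PRMT1 OV and 17.6 ± 2.44 TPM in Mock (SD, n = 3 each). HSPA1A, HSPA1B, HSP90AA1, HSP90AB1 and HSPB1 fell to between 71.6% and 83.4% of their Mock means. HSPA4 rose to 171% of its Mock mean, and HSPA8, HSPH1 and HSF1 did not pass the test. TPM are transcript levels per length that add up to 1000000 in each library, and the test was limma on log2(TPM + 1), with p-values adjusted over 15341 tested genes and a threshold of 0.05. Of the 10 genes, 1 was called higher and 6 were called lower. Among all tested genes 40.3% were called higher and 8.64% lower, 49% in either direction. All 3 PRMT1 OV values lay above all 3 Mock values for HSPA4 and HSPH1 and below them for 6 of the 10 genes, against 49.8% and 11.6% of all tested genes. The median log2 fold change over all tested genes was 0.30, and over the 10 genes it was -0.30, which is -0.61 relative to that median.

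**Figure D1:**
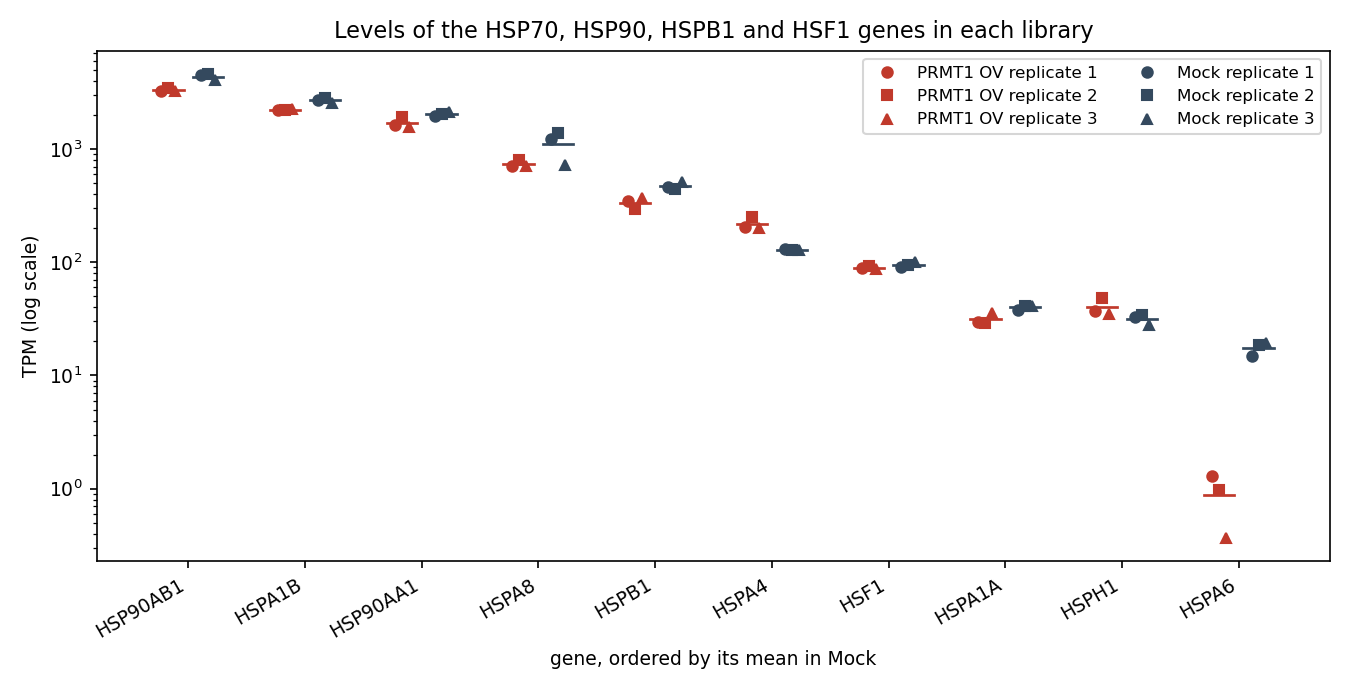
Level of each gene in each library in TPM on a log scale, genes ordered by their mean in Mock, with PRMT1 OV left of Mock, 1 symbol per replicate and a bar at each group mean. HSPA6 stands at 0.370 to 1.29 TPM in PRMT1 OV and at 14.9 to 19.5 TPM in Mock, and the Mock 3 value of HSPA8 lies beside the PRMT1 OV values.

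The stretches before the starts of these genes are shown because the elements that HSF1 binds can lie there. RefSeq promoter sequences on GRCh38.p14 matched 9 of the 10 genes, all but HSF1. The 250 bases before each RefSeq start were searched for pairs of units, GAA then TTC or TTC then GAA with any 2 bases between them, and for triplets, in which GAA, TTC and GAA or TTC, GAA and TTC follow each other at the same spacing. Each pair motif is its own reverse complement and the triplet motifs are reverse complements of each other, so both strands are covered, and every triplet contains both pair motifs. Of the 12 starts of the 9 genes, 7 had a pair before them and 4 a triplet, each in a different gene, while of 35116 promoters of all genes 11.6% held a pair and 0.441% a triplet. Counted by gene, 7 of 9 held a pair and 4 of 9 a triplet before at least 1 start, against 14.0% and 0.557% of 27305 genes. HSPA6, HSPA1B and HSPA4 are printed up to the annotated first exon or the RefSeq start. They are the gene with the largest fall, the HSP70 gene of the 10 with the highest deposited TPM, and the gene called higher. Capitals mark the letters of a motif, and sequences run 5′ to 3′ along the gene.
HSPA6, chr1:161524290-161524539, plus strand: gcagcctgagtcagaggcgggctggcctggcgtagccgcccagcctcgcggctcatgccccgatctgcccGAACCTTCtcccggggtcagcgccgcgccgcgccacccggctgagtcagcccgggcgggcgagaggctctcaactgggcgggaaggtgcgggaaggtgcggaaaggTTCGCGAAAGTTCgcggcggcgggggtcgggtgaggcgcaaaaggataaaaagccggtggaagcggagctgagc
HSPA1B, chr6:31827488-31827734, plus strand: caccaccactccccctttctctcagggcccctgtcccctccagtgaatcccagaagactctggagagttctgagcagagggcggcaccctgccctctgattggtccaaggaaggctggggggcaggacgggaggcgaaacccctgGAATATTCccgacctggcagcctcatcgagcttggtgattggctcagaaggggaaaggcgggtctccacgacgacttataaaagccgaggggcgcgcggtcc
HSPA4, chr5:133051763-133051961, plus strand: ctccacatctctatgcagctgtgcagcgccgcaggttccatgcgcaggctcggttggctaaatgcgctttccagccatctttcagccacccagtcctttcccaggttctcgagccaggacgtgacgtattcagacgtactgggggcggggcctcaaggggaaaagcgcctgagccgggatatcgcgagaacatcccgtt
The HSPA6 stretch holds a triplet 74 to 62 bases before its start and a separate pair 180 to 173 bases before it. HSPA1B holds 1 pair and no triplet, and neither motif was found before HSPA4 or HSPH1.

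For the other genes, 30 bases around each triplet, or around the pair where a gene has no triplet, are given to compare the elements, with capitals for that motif alone.
HSPA1A, chr6:31815426-31815455, plus strand: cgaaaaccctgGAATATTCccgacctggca
HSPA8, chr11:123062346-123062375, minus strand: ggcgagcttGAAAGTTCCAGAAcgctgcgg
HSPA8, chr11:123062171-123062200, minus strand: gcgggccccTTCTGGAAGGTTCtaagatag
HSP90AA1, chr14:102087112-102087141, minus strand: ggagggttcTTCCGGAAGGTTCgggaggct
HSP90AB1, chr6:44247769-44247798, plus strand: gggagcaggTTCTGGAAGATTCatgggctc
HSP90AB1, chr6:44247822-44247851, plus strand: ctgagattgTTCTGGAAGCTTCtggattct
HSPB1, chr7:76302480-76302509, plus strand: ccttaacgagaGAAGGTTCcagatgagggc
HSPA8 and HSP90AB1 each hold 2 triplets. HSP90AA1 holds its triplet before the RefSeq start at chr14:102087044 and none before the upstream start. A separate pair stands 68 to 61 bases before the same start of HSP90AA1, and its first letter is the last of the printed window. HSPA1A and HSPA1B were identical at 235 of 249 aligned bases before the start, or 94.4%. A match of letters is a description of the sequence, and binding of HSF1 was not measured.

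**Figure D2:**
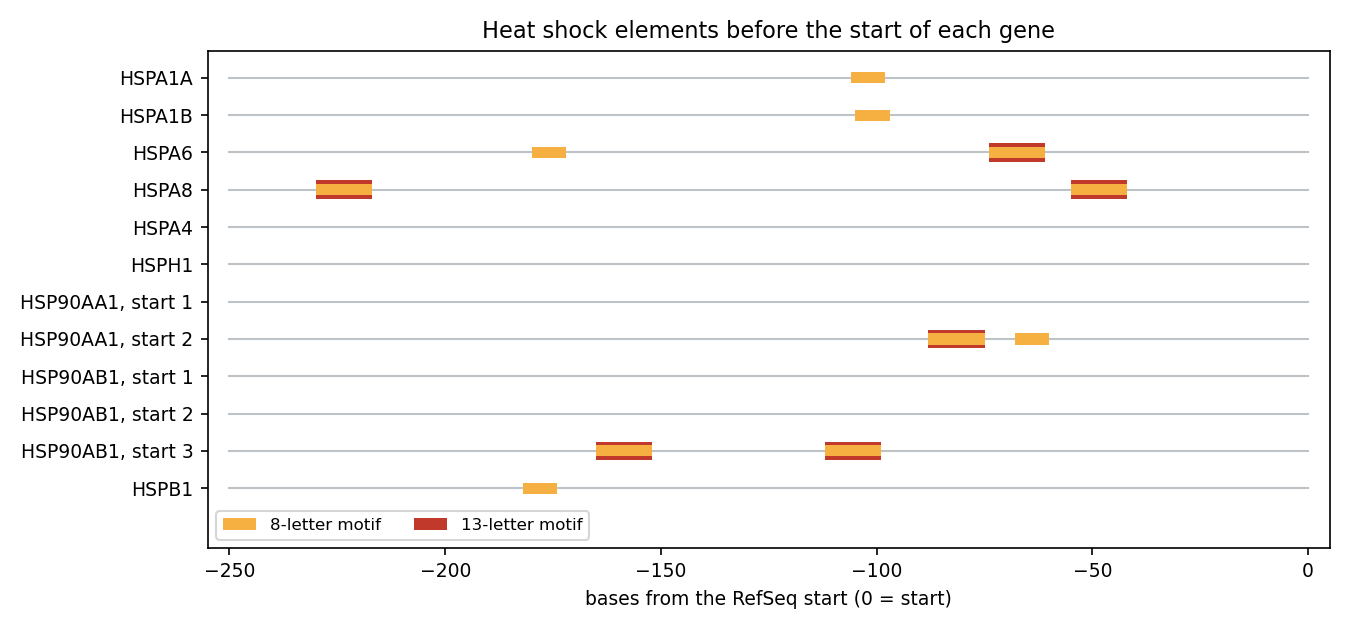
Positions of the pair motif of 8 letters and the triplet motif of 13 letters in the 250 bases before each RefSeq start, in bases from the start, 1 line per start and genes named at the left. Triplets stand before HSPA6, HSPA8, the second start of HSP90AA1 and the third start of HSP90AB1, and the lines of HSPA4 and HSPH1 are empty.

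PRMT1 itself stood at 71656, 62895 and 84923 TPM in the PRMT1 OV libraries and at 378, 397 and 368 TPM in the Mock libraries, so PRMT1 was high in every library labelled for its overexpression and in no Mock library. An exact two-sided permutation test over 3 against 3 libraries gave p = 0.1, the smallest this design allows. The libraries held 19869772 to 23160490 recovered reads in PRMT1 OV and 18192877 to 20424967 in Mock, worked out from the TPM values and the exonic length of each gene. Since PRMT1 takes a share of the fixed total, values rescaled without PRMT1 are also given where a named gene gains or loses its call. All 9 markers of HEK293T and kidney epithelium reached 1 TPM in every library, with summed levels of 698 to 761 TPM in PRMT1 OV and 933 to 1038 TPM in Mock. Of the markers of other cells, COL1A1 of 4 for fibroblasts reached 1 TPM in all 6 libraries, none of 4 for endothelium and none of 3 for hepatocytes did, and the T cell marker CD3E and the hepatocyte marker TTR were listed at 0 throughout.

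HSPA6, on chromosome 1 from 161524540 to 161526910 on the plus strand of GRCh38, encodes an HSP70 that is nearly silent in unstressed cells. It had 1.29, 0.981 and 0.370 TPM in the PRMT1 OV libraries and 14.9, 18.5 and 19.5 TPM in the Mock libraries. These levels rest on 20, 15 and 5 reads in PRMT1 OV and on 221, 262 and 271 reads in Mock. The groups did not come near each other, and the PRMT1 OV mean was 4.99% of the Mock mean. Its log2 fold change on log2(TPM + 1), a scale that understates the change of a low gene, was -3.33 (SE 0.21, limma adjusted p = 7.27e-05), or -3.64 relative to the median of all genes. It was called lower under all 19 alternative settings, with log2 fold changes of -4.31 to -1.94. These settings refit the same libraries and are no separate evidence. HSPA6 passed the filter only through its Mock values. Of its 50-base windows, 45.5% also occur in HSPA7, a pseudogene that had 0 reads in each PRMT1 OV library and 3, 7 and 2 reads in the Mock libraries. In bulk RNA, a lower level in every cell cannot be told apart from fewer cells that express the gene.

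HSPA1A and HSPA1B are neighbouring genes on chromosome 6, at 31815464 to 31817946 and 31827735 to 31830255 on the plus strand, that encode the main heat-inducible HSP70. HSPA1B had 2209, 2237 and 2270 TPM in PRMT1 OV and 2731, 2821 and 2533 TPM in Mock, or 2239 ± 30.6 and 2695 ± 147 TPM (SD, n = 3 each). Every PRMT1 OV library was below every Mock library, and HSPA1B fell by 0.27 on the log2 scale (SE 0.06, limma adjusted p = 0.00701). HSPA1A had 29.8, 29.3 and 35.4 TPM in PRMT1 OV and 37.6, 40.9 and 41.4 TPM in Mock. It also fell without overlap of the groups, by 0.34 on the log2 scale (SE 0.10, limma adjusted p = 0.0232). Of the 50-base windows of HSPA1A 72.6% are shared with other genes, and of those of HSPA1B 73.5%, almost all with each other, so the division of reads between them is uncertain. A further gene of GENCODE 29, ENSG00000285565, holds 33.8% of the windows of HSPA1A and 35.3% of those of HSPA1B and was not analysed here. The sum of HSPA1A and HSPA1B, which does not depend on the division between these 2, was 2270 ± 33.5 TPM in PRMT1 OV and 2735 ± 146 TPM in Mock (SD, n = 3 each), also without overlap. HSPA1B was not called with PRMT1 taken out (log2 fold change -0.16, adjusted p = 0.0553) or after quantile normalization (0.09, adjusted p = 0.325). HSPA1A was not called with PRMT1 taken out (-0.23, adjusted p = 0.0868) or without Mock 2, PRMT1 OV 1 or PRMT1 OV 2 (adjusted p = 0.0685, 0.0856 and 0.0603).

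HSPA8, on chromosome 11 from 123057489 to 123063230 on the minus strand, encodes the constitutive HSP70 that serves folding, clathrin uncoating and chaperone-mediated autophagy. It had 704, 805 and 709 TPM in PRMT1 OV and 1219, 1377 and 723 TPM in Mock. Mock 3 lay between the PRMT1 OV libraries, and Mock 1 and Mock 2 lay above all of them. The log2 fold change was -0.53 (SE 0.22, 95% interval -1.03 to -0.03) and did not pass the test (limma adjusted p = 0.0747). Without Mock 3 it was -0.81 and passed (adjusted p = 0.00107), and it also passed after GC correction (-0.88, adjusted p = 0.00638) and with array weights, which give libraries that stand apart less weight (-0.78, adjusted p = 0.000119). In Mock 3, HSPA8 stood at 0.557 of the mean of Mock 1 and Mock 2, a ratio below which 311 of the 15341 tested genes lay. None of the other 9 genes was in the lowest 30% of genes by that measure. Of the genes that overlap HSPA8, SNORD14E had 1, 6 and 0 reads in PRMT1 OV and 1, 1 and 7 reads in Mock, and SNORD14C and SNORD14D were listed at 0.

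HSPA4 and HSPH1 encode HSP110 proteins, which exchange the nucleotide of HSP70. HSPA4, on chromosome 5 from 133051962 to 133106449 on the plus strand, had 207, 253 and 199.6 TPM in PRMT1 OV and 131, 127 and 128 TPM in Mock. It was the only one of the 10 genes called higher, by 0.76 on the log2 scale (SE 0.10, adjusted p = 0.000757 in limma), or 0.46 relative to the median of all genes. The rise was called under all 19 alternatives, with log2 fold changes of 0.34 to 0.87. HSPH1, on chromosome 13 from 31134974 to 31162388 on the minus strand, had 37.2, 48.2 and 35.2 TPM in PRMT1 OV and 32.9, 34.2 and 28.1 TPM in Mock. Its groups did not overlap, but the log2 fold change of 0.32 (SE 0.14) did not pass the test (limma adjusted p = 0.0804) and was 0.02 relative to the median. With PRMT1 taken out HSPH1 passed as higher (0.43, adjusted p = 0.0242), while median-of-ratios scaling gave -0.02 (adjusted p = 0.842). In the longest transcript of each gene, HSPH1 and HSPA4 had the lowest GC contents of the 10 genes, 40.0% and 42.5%. The others stood at 45.2% to 64.7%. After a correction for GC content, HSPA4 was still higher (0.34, adjusted p = 0.00381) and HSPH1 stood at -0.16 (adjusted p = 0.0623).

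HSP90AB1, on chromosome 6 from 44246166 to 44253888 on the plus strand, encodes the constitutive HSP90 of the cytosol and was the most abundant of the 10 transcripts. It had 3271, 3443 and 3248 TPM in PRMT1 OV and 4472, 4616 and 4042 TPM in Mock. The groups lay well apart, and HSP90AB1 fell by 0.40 on the log2 scale (SE 0.06, limma adjusted p = 0.00214). HSP90AA1, on chromosome 14 from 102080738 to 102139699 on the minus strand, encodes the inducible form. It had 1618, 1904 and 1571 TPM in PRMT1 OV and 1954, 2031 and 2125 TPM in Mock. The groups did not overlap, with PRMT1 OV 2 just below Mock 1. HSP90AA1 fell, but the difference of -0.27 on the log2 scale (SE 0.08, limma adjusted p = 0.0291) was close to the threshold. It was not called without Mock 1, Mock 2, Mock 3, PRMT1 OV 1 or PRMT1 OV 3 (adjusted p = 0.0504 to 0.1003), nor with PRMT1 taken out (-0.16, adjusted p = 0.122). The call of HSP90AA1 was also lost without the filter on low values and without the variance trend of limma (adjusted p = 0.0997 and 0.0805). After quantile normalization the log2 differences were -0.09 for HSP90AB1 (adjusted p = 0.513) and 0.01 for HSP90AA1 (adjusted p = 0.960). An exon of WDR20 overlaps HSP90AA1 on the other strand, and WDR20 rose to 6.998 ± 0.638 TPM in PRMT1 OV, against 3.29 ± 0.0990 TPM in Mock (SD, n = 3 each, limma adjusted p = 0.000890).

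HSPB1, on chromosome 7 from 76302544 to 76304295 on the plus strand, encodes HSP27, a small heat shock protein that holds unfolded proteins without using ATP. It had 349, 298 and 366 TPM in PRMT1 OV and 460, 446 and 508 TPM in Mock. The groups did not overlap, and HSPB1 fell by 0.48 on the log2 scale (SE 0.09, limma adjusted p = 0.00429). This was the largest called fall after HSPA6, and the call was lost only under quantile normalization among the 19 alternatives (-0.32, adjusted p = 0.0563).

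HSF1, on chromosome 8 from 144291591 to 144314722 on the plus strand, had 89.1, 92.0 and 87.8 TPM in PRMT1 OV and 90.1, 95.2 and 101 TPM in Mock. The groups overlapped, and the log2 fold change was -0.09 (SE 0.07, 95% interval -0.25 to 0.08, limma adjusted p = 0.333). Relative to the median of all genes it was -0.39, and after median-of-ratios scaling HSF1 was called lower (-0.44, adjusted p = 0.00817). An exon of DGAT1 overlaps HSF1 on the other strand, and DGAT1 fell by 0.48 on the log2 scale (limma adjusted p = 0.00261). HSF1 protein, its trimers and its location in the cell are not part of these measurements.

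**Figure D3:**
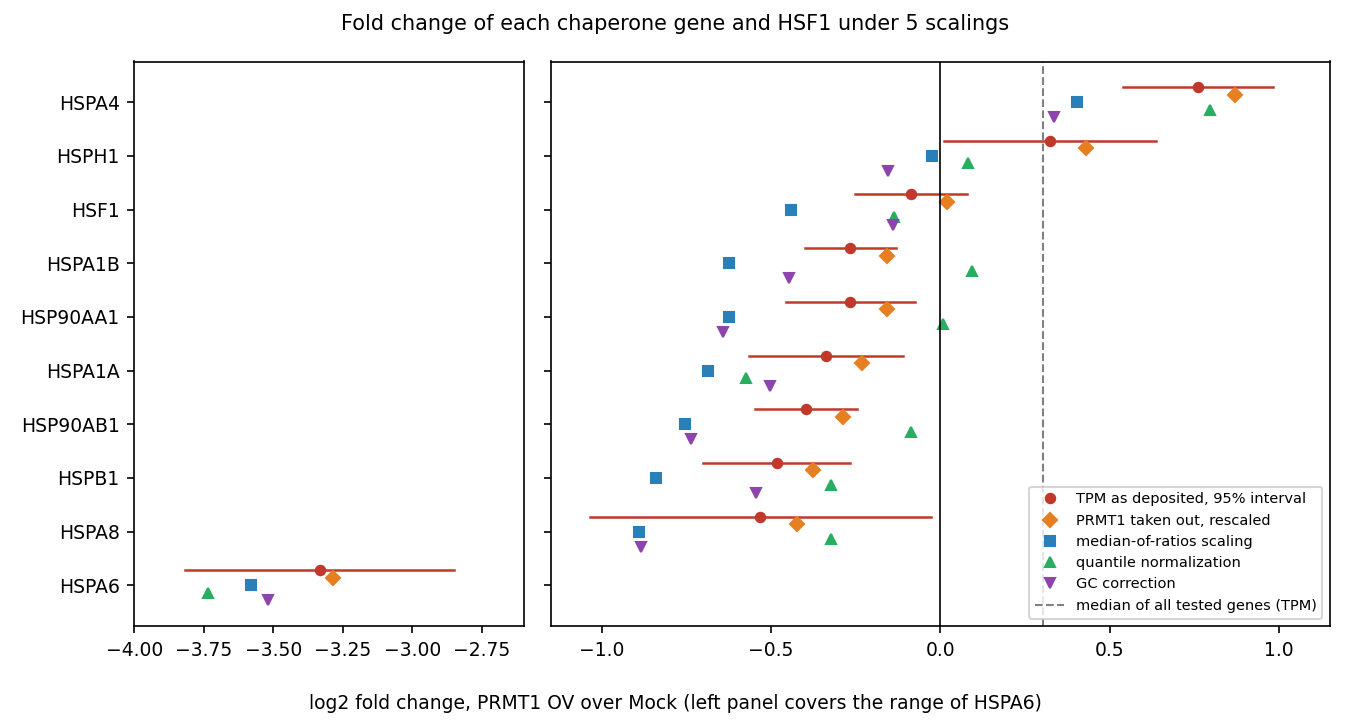
Log2 fold change of PRMT1 OV over Mock for each gene, as deposited with its 95% interval and under 4 other scalings, with the median of all tested genes dashed at 0.30 and HSPA6 in a panel of its own range. HSPA6 stays below -3 and HSPA4 above 0.3 under all 5, while HSPA1B, HSP90AA1, HSPH1 and HSF1 cross 0 under at least 1.

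Median-of-ratios scaling lowered the log2 fold change of each of the 10 genes, and taking PRMT1 out raised each. Quantile normalization moved them both ways, HSPA1A from -0.34 to -0.57 and HSPA1B from -0.27 to 0.09. With libraries scaled by median of ratios, which brings the typical gene to no change, 1 of the 10 genes was higher and 8 were lower, where 23.5% of all tested genes were higher and 24.1% lower. HSPA8 (-0.89, adjusted p = 0.00523) and HSF1 joined the genes called lower, and HSPH1 was the gene not called. Quantile normalization called HSPA4 higher and 2 genes lower, HSPA6 and HSPA1A. With PRMT1 taken out, HSPA4 and HSPH1 were higher, and HSPA6, HSP90AB1 and HSPB1 were lower.

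In Mock the order of levels per length was HSP90AB1, HSPA1B, HSP90AA1, HSPA8, HSPB1, HSPA4, HSF1, HSPA1A, HSPH1 and HSPA6, and no neighbours in that order overlapped. PRMT1 OV had the same order except that HSPH1 (40.2 ± 6.997 TPM) stood above HSPA1A (31.5 ± 3.36 TPM, SD, n = 3 each), and these 2 overlapped. The places of HSPA1A and HSPA1B rest on the deposited division of reads between them, which is uncertain. The 9 chaperone genes without HSF1 summed to 8626 ± 340 TPM in PRMT1 OV and 10905 ± 694 TPM in Mock, which is 0.931 ± 0.0285% and 1.09 ± 0.0694% of the TPM outside PRMT1 (SD, n = 3 each). The groups did not overlap in either sum. HSP90AB1 made up 38.5 ± 0.320% of the sum in PRMT1 OV and 40.1 ± 0.317% in Mock, and HSPA4 2.54 ± 0.231% and 1.18 ± 0.0792%. Both shares separated the groups, HSP90AB1 downward and HSPA4 upward in PRMT1 OV.

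Ratios within a library of the deposited TPM do not depend on a factor that multiplies the whole library, as median-of-ratios scaling and the removal of PRMT1 do. HSPH1 over HSPA4 was 0.182 ± 0.00741 in PRMT1 OV and 0.246 ± 0.0250 in Mock, without overlap. HSP90AA1 over HSP90AB1 was 0.511 ± 0.0373 in PRMT1 OV and 0.468 ± 0.0503 in Mock, and the groups overlapped (SD, n = 3 each). HSPA1A plus HSPA1B over HSPA8 was 3.18, 2.82 and 3.25 in PRMT1 OV and 2.27, 2.08 and 3.56 in Mock. Mock 3, with its low HSPA8, was the highest library in that ratio and again in HSPB1 over HSPA8, which was 0.461 ± 0.0795 in PRMT1 OV and 0.468 ± 0.205 in Mock (SD, n = 3 each). HSPA6 over HSPA8 was 0.00119 ± 0.000656 in PRMT1 OV and 0.0175 ± 0.00818 in Mock, with no overlap.

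**Figure D4:**
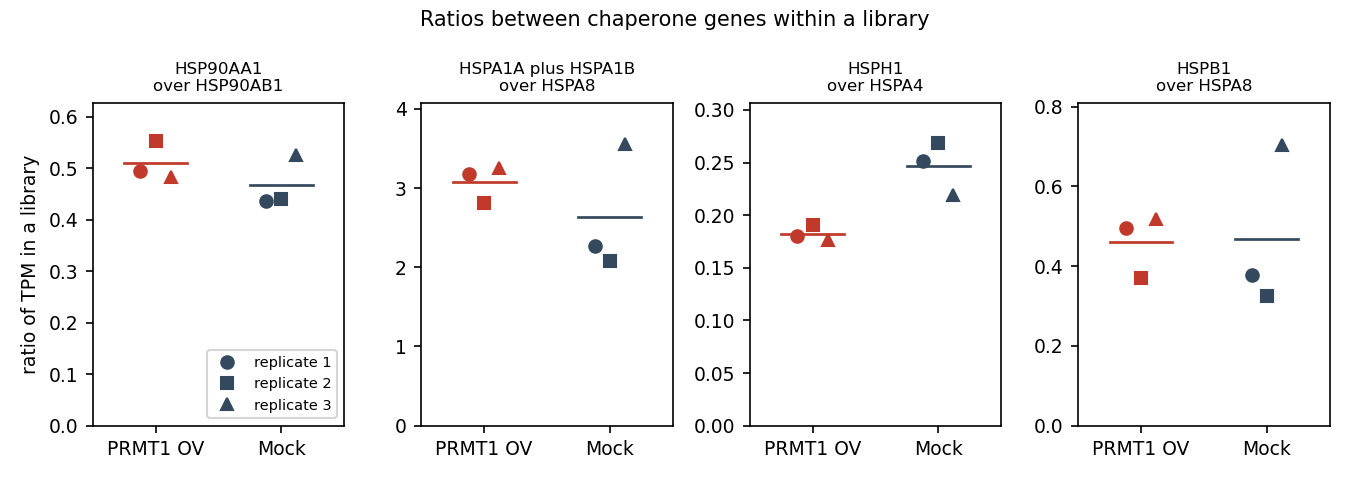
Ratios of TPM between chaperone genes in each library, PRMT1 OV left of Mock, 1 symbol per replicate and a bar at each group mean. HSPH1 over HSPA4 separates the groups at 0.182 and 0.246, and the triangle of Mock 3 is the highest in both ratios to HSPA8.

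Over the 6 libraries, the genes whose log2(TPM + 1) followed HSPA6 most closely were QPRT (Pearson r = 0.9995), IGFBP2, MZF1, SERTAD3 and SOCS1. SOCS1, an inhibitor of cytokine signalling, was the one with a fall of similar size, at 1.28 TPM in PRMT1 OV and 15.01 TPM in Mock (means, n = 3 each). The closest to HSPA1B were SMARCA4 (r = 0.9997), PFKP, ENO2, SF3B2 and PCED1A. Values of r above 0.95 were reached by 431 tested genes for HSPA6 and by 309 for HSPA1B, and all points share the same 6 libraries and their split into 2 groups.

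Other genes of the chaperone system are given by lists, some genes standing in 2 lists. Counts are to be read against the 40.3% of all tested genes called higher and the 8.64% called lower, or 23.5% and 24.1% after median-of-ratios scaling. Of 8 tested HSP70 and HSP110 genes outside the 10, 4 rose and 1 fell, or 3 and 3 after that scaling, with a median log2 fold change 0.15 above that of all genes. HSPA13, a short HSP70 family member, rose by 1.05, HSPA4L, another HSP110 gene, by 1.00, and HSPA14, an HSP70 of the ribosome, by 0.68 on the log2 scale (adjusted p = 0.00120, 0.00146 and 0.00533 in limma). HSPA5, the HSP70 of the endoplasmic reticulum known as BiP, had 3503, 4098 and 3545 TPM in PRMT1 OV and 9256, 9479 and 8496 TPM in Mock. Every PRMT1 OV library was far below the lowest Mock library, and HSPA5 fell by 1.29 on the log2 scale (SE 0.08, limma adjusted p = 6.99e-05), more than any of the 10 genes except HSPA6. HSP90B1, the HSP90 of the same compartment, fell by 0.70 (adjusted p = 0.00132) and TRAP1, that of mitochondria, by 0.24 on the log2 scale (adjusted p = 0.0242). TRAP1 was not called without Mock 1, Mock 2, PRMT1 OV 1 or PRMT1 OV 3 (adjusted p = 0.0580 to 0.0934) or with PRMT1 taken out (0.146).

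Of 4 tested small heat shock protein genes besides HSPB1, HSPB8, the partner of BAG3, rose by 0.55 and CRYAB, alpha-B crystallin, fell by 0.51 on the log2 scale (adjusted p = 0.0235 and 0.0367 in limma). Both are low, at 9.53 and 1.96 TPM in PRMT1 OV and 6.14 and 3.22 TPM in Mock (means, n = 3 each). HSPB8 was not called without Mock 3 or PRMT1 OV 3 (adjusted p = 0.0620 and 0.0660) or after median-of-ratios scaling (0.254), and CRYAB was not called without Mock 2, Mock 3, PRMT1 OV 1 or PRMT1 OV 2 (0.0780 to 0.114) or with PRMT1 taken out (0.0604). HSF2, a second heat shock factor, rose to 59.7 ± 13.1 TPM in PRMT1 OV, against 34.6 ± 1.89 TPM in Mock (SD, n = 3 each). The log2 difference was 0.75, with a limma adjusted p of 0.00431. HSF4 stayed between 0.248 and 0.544 TPM in all libraries, HSF5 was listed at 0, and neither was tested.

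Of 20 other genes known as HSF1 targets, 6 rose, 6 fell and 8 did not pass, where 40.3% of all tested genes were called higher and 8.64% lower, with a median log2 fold change of -0.26 relative to all genes. DNAJB1, a J-domain protein that hands clients to HSP70, fell by 0.89 on the log2 scale, with 153, 163 and 159 TPM in PRMT1 OV and 293, 302 and 290.0 TPM in Mock (limma adjusted p = 9.07e-05). UBB, a polyubiquitin gene, fell by 0.50 on the log2 scale (adjusted p = 0.000312). After quantile normalization UBB was not called (-0.19, limma adjusted p = 0.0859). ZFAND2A, a partner of the proteasome induced by arsenite, rose by 0.97 and BAG3, a nucleotide exchange factor of HSP70, by 0.52 on the log2 scale (adjusted p = 0.00125 and 0.00157). Under median-of-ratios scaling 3 of the 20 were higher and 9 lower, and BAG3 was not called (adjusted p = 0.185).

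Among 9 HSP70 cochaperones outside the DNAJ family, 5 rose and 1 fell (all tested genes, 40.3% and 8.64%), with a median log2 fold change of 0.03 relative to all genes. BAG5 and HSPBP1, which also exchange its nucleotide, rose by 0.89 and 0.49 on the log2 scale (adjusted p = 0.00155 and 0.00133 in limma), and ST13, which stabilises the ADP-bound form, fell by 0.26 (adjusted p = 0.0436). After median-of-ratios scaling 2 were higher and 3 lower, and HSPBP1 was not called (adjusted p = 0.367). ST13 was not called without Mock 1, Mock 2, PRMT1 OV 1 or PRMT1 OV 3 (adjusted p = 0.124 to 0.1298) or with PRMT1 taken out (0.1703). Its groups overlapped, and after quantile normalization its log2 fold change was -0.03 (limma adjusted p = 0.795).

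Among 16 HSP90 cochaperones, 6 rose, a share near the 40.3% of all tested genes, and 3 fell, against 8.64% of all, with a median log2 fold change of -0.11 relative to all genes. CHORDC1, FKBP5, an immunophilin of steroid receptor complexes, and STIP1, which links HSP70 to HSP90, rose by 0.77, 0.78 and 0.31 on the log2 scale (adjusted p = 0.00318, 0.00533 and 0.00423 in limma). FKBP8, CDC37, which brings kinases to HSP90, and the phosphatase gene PPP5C fell by 0.42, 0.35 and 0.22 (adjusted p = 0.00118, 0.00471 and 0.0345). Under median-of-ratios scaling 3 were higher and 7 lower, and STIP1 stood at -0.05 (adjusted p = 0.623). CDC37 was not called after quantile normalization (-0.22, limma adjusted p = 0.0552). PPP5C was not called with any 1 library left out except Mock 3 (adjusted p = 0.0559 to 0.131) or with PRMT1 taken out (0.215).

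Of 10 regulators of HSF1, 5 rose, against 40.3% of all tested genes, and 5 did not pass, with a median log2 fold change of -0.04 relative to all genes. SIRT1, a deacetylase that acts on HSF1, had 20.4, 46.2 and 52.4 TPM in PRMT1 OV and 14.8, 15.6 and 11.2 TPM in Mock (log2 fold change 1.36, SE 0.32, limma adjusted p = 0.0104). PRMT1 OV 1 was far below the other PRMT1 OV libraries and still above Mock. EP300, an acetyltransferase of HSF1, and PLK1, a mitotic kinase that phosphorylates it, rose by 0.74 and 0.41 on the log2 scale (adjusted p = 0.0107 and 0.00500). After median-of-ratios scaling 3 of the 10 were higher and 5 lower, and PLK1 was not called (adjusted p = 0.642). EP300 was not called after quantile normalization (0.31, limma adjusted p = 0.0873).

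**Figure D5:**
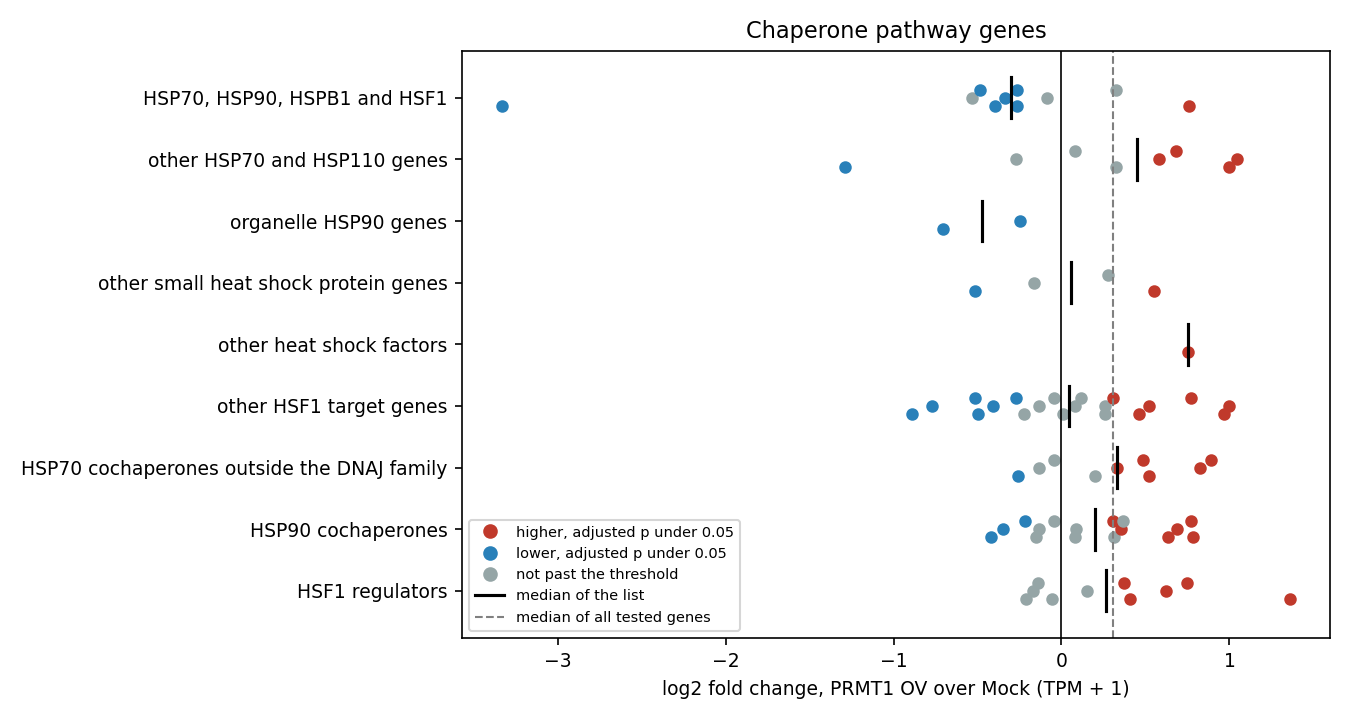
Log2 fold change of PRMT1 OV over Mock for every tested gene of the 9 lists, red for genes called higher, blue for genes called lower and grey for the rest, with a black bar at the median of each list and the median of all tested genes dashed at 0.30. The top line with HSPA6 at -3.33 has its median at -0.30, the organelle HSP90 genes lie below 0, and the HSF1 targets spread to both sides.

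Chaperone genes have many processed copies in the genome, and reads of a gene can be counted on its copy. Of 31 pseudogenes named for 1 of the 10 genes, including HSPA7, 5 reached 1 TPM in some library and 10 were listed at 0 in all 6, and the highest value was 5.64 TPM. The 3 tested copies were HSP90AA2P, HSP90AB3P and HSPB1P2, with log2 fold changes of 0.03, -0.56 and 0.45 that did not pass the test (limma adjusted p = 0.945, 0.0507 and 0.109). HSP90AB3P, at 33, 55 and 35 reads in PRMT1 OV and 74, 73 and 47 reads in Mock, passed as lower without Mock 3 (-0.72, adjusted p = 0.0232) and without PRMT1 OV 2 (-0.72, adjusted p = 0.0282), and also after median-of-ratios scaling (-0.84, adjusted p = 0.00396), quantile normalization (-1.01, adjusted p = 0.00275) and GC correction (-0.91, adjusted p = 0.00249). Of 50-base windows, 18.8% of HSP90AB1, 17.5% of HSP90AA1, 15.4% of HSPA8 and 6.97% of HSPB1 occur in other genes, and 0 of HSPA4, HSPH1 and HSF1. With 100-base windows these shares were 1.59%, 2.14%, 0 and 3.02%, while HSPA1A, HSPA1B and HSPA6 kept 69.9%, 72.7% and 27.6%.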

How the data were processed

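PolyA-selected RNA was sequenced in 6 libraries. The authors deposited TPM values per Ensembl gene, and each column sums to 1000000. Per the submitters' processing notes, the tools named are STAR 2.5.2b, Trimmomatic 0.36, Subread 1.5.2 and featureCounts, without role or order, and the build is GRCh38. The annotation, the strand setting and the treatment of reads that match several genes were not given in the sources used here, so reads of overlapping genes on opposite strands and of near-identical copies cannot be told apart. Symbols were found for 40907 of 57500 identifiers. Coordinates, exonic lengths and transcript windows came from GENCODE 29, which held 56898 of them and may differ from the annotation of the table. TPM multiplied by that length came to whole multiples of a library's own step, within 0.05 of a read for 95.5 to 95.7% of values under 50 reads, which gave the recovered reads. For a gene of 1 kb, 3 reads are 0.459 to 0.526 TPM, a limit that covers counting error only.

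A gene entered the test when 3 or more libraries reached 1 TPM. The test was limma 3.58.1 in R 4.3.3 (lmFit, eBayes with trend) on log2(TPM + 1), two-sided, without covariate, and p-values were Benjamini-Hochberg adjusted over all 15341 tested genes. The fit was tested on simulated data. No library was a duplicate of another in its group (chi-square per degree of freedom of recovered reads 2.70 to 23.2). The 10 genes, the lists and the motifs were chosen with earlier results of these data known. Named are the 10 genes, PRMT1, up to 3 genes in each direction of each list by smallest p, every gene of a list of 3 or fewer, tested copies with HSPA7, overlapping genes, and the 5 genes most like HSPA6 and HSPA1B. A few items that this rule or the marker lists would name are not reported here. The alternatives were other pseudocounts (0.1 and 5 TPM), filters (none, 5 TPM), scalings and models, and libraries left out. Tables were handled in Python 3.11.15 with pandas 2.3.3, numpy 2.4.6, scipy 1.17.1 and matplotlib 3.10.9.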

Additional observations from a re-analysis of the deposited data

How the results depend on the processing

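The 10 genes were refitted under 19 alternatives, and HSPA6 and HSPA4 kept their call under all of them. Other tested genes had 18 or 19, since PRMT1 has no value once taken out and CRYAB, SNORD14E and the tested copies do not pass the filter at 5 TPM. Genes called higher and lower, 6190 and 1325 as reported, numbered 3605 and 3692 with median-of-ratios scaling, 3103 and 2976 with quantile normalization, 3630 and 3874 with GC correction, and 3278 and 3640 with the replicate block and GC correction. Genes called lower numbered 880 with PRMT1 taken out, 2838 with array weights, and 2115 without Mock 3 and PRMT1 OV 2 together. Leaving out 1 library gave 5082 to 5634 higher and 935 to 1520 lower. Of the 10 genes, 2 were called lower with quantile normalization and 3 with PRMT1 taken out, and 2 were called higher with PRMT1 taken out, with array weights and with the replicate block. Leaving out 1 library left 1 higher and 4 to 6 lower.

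The log2 fold change turned in sign for HSPA1B (0.094) and HSP90AA1 (0.0075) with quantile normalization, for HSPH1 with median-of-ratios scaling (-0.024) and with GC correction, with or without the block (-0.16), for HSF1 with PRMT1 taken out (0.020) and for STIP1 with median-of-ratios scaling (-0.050). HSP90AA2P turned to -0.22 (median of ratios), -0.38 (quantile), -0.11 (array weights), -0.42 (GC correction, with or without the block), -0.21 (without Mock 3), -0.14 (without PRMT1 OV 2) and -0.37 (without both), and SNORD14E to 0.14 (without Mock 3) and 0.20 (without PRMT1 OV 3). With 1 library left out, HSP90AA2P ranged from -0.21 to 0.25 and SNORD14E from -1.59 to 0.20. The cause was not tested. The mean log2 ratio of HSPB1 over HSPA8, whose groups overlap, was 0.05 higher in PRMT1 OV than in Mock although the mean ratio was lower, and this difference ranged from -0.18 to 0.38 with 1 library left out, with -0.01 and -0.04 without PRMT1 OV 1 and 3 and -0.07 and -0.18 without Mock 1 and 2. The triplet motif was found before 4 genes, against 7 for the pair. Same-numbered libraries did not deviate together over all tested genes (r = -0.03, 0.06 and 0.02), and differently numbered ones gave r of -0.08 to 0.07. Such values cannot exclude a pairing that touches few genes, and the labels state none. With the replicate block, 6275 genes were higher and 1314 lower, and HSPA8 and HSPH1 passed (adjusted p = 0.0258 and 0.0316). Of all values recomputed, 707 kept direction and call, 65 lost the call, 22 gained it and 17 turned. Depth limits HSPA6 in PRMT1 OV, where 5 to 20 reads were recovered.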
